A study of Mus musculus with 8 samples.

Results

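The 10 genes described here encode the elastic fibre of the artery wall and the enzymes that cross-link it: Eln, Fbn1, Fbn2, Fbln5, Efemp2, Mfap4, Mfap5, Emilin1, Lox and Loxl1. They were taken by gene symbol from the 55353 rows of the count table, and all 10 were found. Bulk mRNA sequencing had measured them in primary smooth muscle cells cultured from mouse aorta, revived from frozen stocks and lysed in Trizol. There were 8 libraries in 4 genotypes of 2 libraries each: E12 knockout (E12 KO), E12 wild type (E12 WT), E47 knockout (E47 KO) and E47 wild type (E47 WT). Both proteins are splice forms of the E2A transcription factor, which binds DNA through a basic helix-loop-helix domain and is encoded by Tcf3. No other allele, treatment, strain or age is stated in the labels. The 2 libraries of a genotype are separate extractions, and nothing says that they came from separate cultures or animals, so the p-values measure only the spread between these extractions, which may be technical. 

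Elastic fibres let the aorta stretch and recoil, and smooth muscle cells of the media are their main source. Tropoelastin, the product of Eln, is secreted as a soluble monomer and laid down on a scaffold of fibrillin microfibrils (Fbn1, Fbn2), to which the microfibril-associated glycoproteins (Mfap4, Mfap5) attach. Short fibulins (Fbln5 and Efemp2, also called fibulin 4) carry tropoelastin and the cross-linking enzymes to the scaffold, and Emilin1 sits at the interface of elastin and microfibril. Lysyl oxidase (Lox) and its relative Loxl1 are copper-dependent enzymes that oxidize lysines of tropoelastin, after which the chains join into an insoluble polymer.

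Promoter sequences from RefSeq (GRCm38.p6) were matched for 4 of the 10 genes, as 7 windows of 300 bases that run from 250 bases before to 50 bases after an annotated start. E proteins bind DNA at E-boxes, so the windows were searched for CANNTG, which reads as CANNTG on both strands, and matches are in capitals. A window is shown for each of these 4 genes. The windows, printed 5′ to 3′ on the strand of the gene, are chr12:101819070-101819369 (minus) for Fbln5, chr5:30913536-30913835 (plus) for Emilin1, chr2:125506389-125506688 (minus) for Fbn1 and chr19:5473696-5473995 (plus) for Efemp2.
Fbln5: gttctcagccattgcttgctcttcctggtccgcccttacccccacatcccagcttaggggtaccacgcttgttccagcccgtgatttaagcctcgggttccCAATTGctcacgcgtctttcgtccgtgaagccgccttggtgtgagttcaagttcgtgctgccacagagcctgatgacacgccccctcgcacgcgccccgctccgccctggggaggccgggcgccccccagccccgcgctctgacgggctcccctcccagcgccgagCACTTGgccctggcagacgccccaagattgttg
Emilin1: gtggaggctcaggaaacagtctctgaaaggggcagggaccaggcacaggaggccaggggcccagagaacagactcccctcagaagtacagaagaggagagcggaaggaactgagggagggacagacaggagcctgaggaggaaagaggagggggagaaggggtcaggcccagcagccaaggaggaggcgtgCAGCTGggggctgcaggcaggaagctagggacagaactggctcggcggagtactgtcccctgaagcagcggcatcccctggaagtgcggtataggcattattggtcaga
Fbn1: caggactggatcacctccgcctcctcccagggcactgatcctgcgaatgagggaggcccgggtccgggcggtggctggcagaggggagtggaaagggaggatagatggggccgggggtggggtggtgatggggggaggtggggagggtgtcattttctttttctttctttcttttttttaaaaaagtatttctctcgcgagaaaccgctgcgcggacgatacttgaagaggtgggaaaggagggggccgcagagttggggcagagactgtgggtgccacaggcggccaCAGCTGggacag
Efemp2: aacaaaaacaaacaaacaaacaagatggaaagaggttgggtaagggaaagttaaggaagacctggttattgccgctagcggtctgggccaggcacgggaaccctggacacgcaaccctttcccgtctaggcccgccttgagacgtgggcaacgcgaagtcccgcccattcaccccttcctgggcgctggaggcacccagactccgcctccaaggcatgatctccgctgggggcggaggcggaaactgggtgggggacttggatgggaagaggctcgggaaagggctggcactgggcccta
The Fbln5 window held 2 matches, CAATTG starting 149 bases before the start and CACTTG 17 bases after it. The Emilin1 window held CAGCTG 59 bases before the start, and the Fbn1 window held CAGCTG 38 bases after it. None was found in the Efemp2 window shown, in the other 2 Efemp2 windows or in a second Fbln5 window. Of 32851 promoter windows of the same length, 72.3% held CANNTG and 16.3% held CAGCTG. A match describes these letters only and is not evidence of binding.

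The libraries held 13909230 to 27517374 counts, and 13992 genes had enough counts to be tested. Levels are given in CPM (counts scaled to a common library size) on library sizes scaled by TMM (a trimmed mean of log ratios between libraries). A count of 3, the most that a count of 0 allows, stood for 0.109 to 0.216 CPM in a single library, for counting error only. Tcf3 itself had 145 and 143 CPM in E12 KO and 109 and 107.5 CPM in E12 WT. It had 128 and 128 CPM in E47 KO and 94.6 and 93.7 CPM in E47 WT. A count per gene does not separate the E12 and E47 isoforms, so it does not check the knockouts. Of the smooth muscle markers, Acta2 was high in every genotype, with a mean of 1639 CPM in E12 KO, 1955 CPM in E12 WT, 2109 CPM in E47 KO and 3569 CPM in E47 WT, whereas Myh11 averaged 2.43, 7.45, 6.93 and 98.3 CPM in the same order. The summed level of 12 smooth muscle markers was 3488 to 3634 CPM in E12 KO, 4534 to 4635 CPM in E12 WT, 4178 to 4596 CPM in E47 KO and 7844 to 7966 CPM in E47 WT. Acta2 and Cald1 were by far the largest parts of this sum in every genotype. The 8 endothelial markers summed to at most 10.2 CPM in any library of E12 KO, E12 WT and E47 KO, and Erg or Tie1 was at 0 in some of these, against 643 to 708 CPM in E47 WT, where Pecam1 averaged 202.6 CPM and Cdh5 170.5 CPM. Not all 8 were high there: Tek averaged 1.38 CPM in E47 WT, and Kdr averaged 3.33 CPM in E12 KO, 4.01 CPM in E12 WT, 0.81 CPM in E47 KO and 2.40 CPM in E47 WT. The 8 mesothelial markers summed to 873 to 893 CPM in E12 KO, 1478 to 1588 CPM in E12 WT, 398 to 413 CPM in E47 KO and 94.4 to 99.9 CPM in E47 WT, and the 9 chondrocyte markers, which include Sox9, to 85.5 to 95.9, 327 to 378, 543 to 554 and 1209 to 1240 CPM in that order. The 9 markers of adventitial fibroblasts summed to 107 to 131, 91.5 to 99.4, 253 to 282 and 170 to 186 CPM. The 7 macrophage markers stayed at or under 15.3 CPM in every library, with at least 3 of the 7 at 0.

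Loss of E12 went with lower mRNA of most elastic fibre genes. In E12 KO against E12 WT, 8 of the 9 tested genes fell and none rose, and Mfap4 did not pass the test (adjusted p under 0.05). Fbn2 had too few counts to be tested. The largest fall was in Mfap5, 15.0-fold, followed by Loxl1, 2.44-fold. Fbn1, Eln, Lox and Fbln5 fell by 1.60 to 1.89-fold, and Efemp2 and Emilin1 by 1.25-fold and 1.15-fold. Of all 13992 genes, 24.5% fell and 21.9% rose in the same comparison (46.4% in either direction), and the median log2 change was -0.89 over the 9 genes and -0.01 over all genes. Both E12 KO libraries lay below both E12 WT libraries for 9 of the 9 genes, which held for 36.3% of all genes tested. In bulk RNA, fewer cells of a type and less RNA per cell cannot be told apart. The summed smooth muscle, mesothelial and chondrocyte markers were lower in E12 KO as well, though not each marker. Smtn averaged 128 CPM in E12 KO and 113 CPM in E12 WT, and Msln 245 and 205 CPM. The adventitial sum was higher in E12 KO, at 107 to 131 CPM against 91.5 to 99.4 CPM in E12 WT. Not each adventitial marker rose: Ly6a averaged 15.5 CPM in E12 KO and 25.6 CPM in E12 WT. The part of these markers in the changes was not tested.

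Loss of E47 went with lower fibulin 5, elastin and Emilin1 mRNA above all. In E47 KO against E47 WT, 7 of the 9 tested genes fell and none rose. Among these is Mfap4 (6.50-fold), which had enough counts to be tested only in E47 KO and E47 WT. Its counts were low outside E47 WT, so its fall is given as a description. Fbln5 fell 4.50-fold, Eln 3.69-fold and Emilin1 2.85-fold, and the falls of Loxl1, Mfap5 and Lox were 1.25 to 1.36-fold. Fbn1 and Efemp2 did not pass the test. Of all genes, 27.5% fell and 27.7% rose (55.2% in either direction), and the median log2 change was -0.44 over the 9 genes and 0.01 over all genes. Both E47 KO libraries lay below both E47 WT libraries for 8 of the 9 genes, all but Efemp2, and for 38.5% of all genes. The endothelial, smooth muscle and chondrocyte sums were higher in E47 WT, and the mesothelial and adventitial sums were higher in E47 KO. Not each marker followed its sum. Myocd averaged 4.90 CPM in E47 WT and 12.2 CPM in E47 KO, Tpm2 119 and 135 CPM, and Matn3 4.09 and 4.33 CPM. Of the adventitial markers, Cd34 averaged 93.4 CPM in E47 WT and 18.1 CPM in E47 KO, and Pdgfra 14.7 and 9.08 CPM. The part of these markers in the result was not tested.

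**Figure D1:**
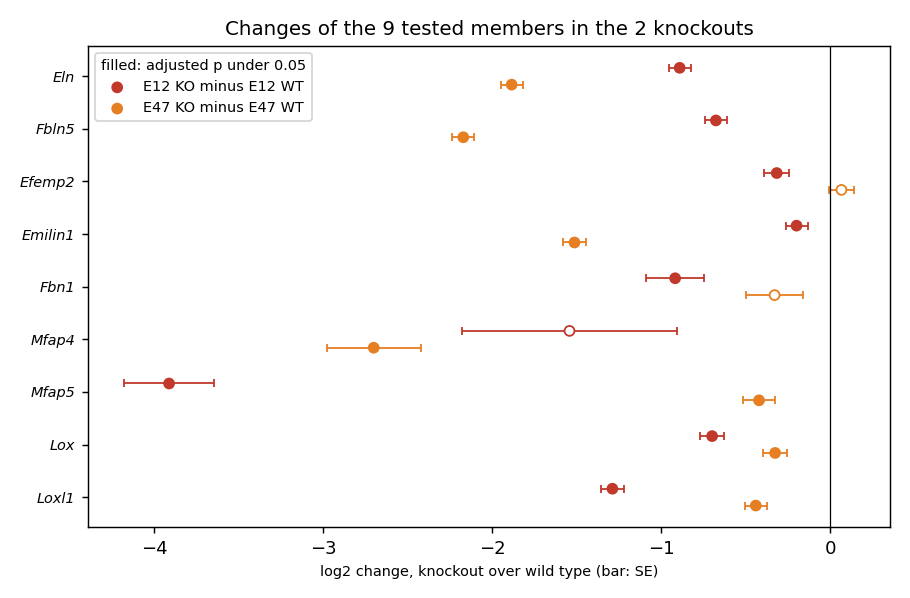
Log2 change of the 9 tested genes, knockout against its own wild type, for E12 and E47, with SE from the fit to 8 libraries; filled points passed the test (adjusted p under 0.05, edgeR). All points lie below 0 except Efemp2 in E47, and Mfap5 is lowest in E12 while Mfap4, Fbln5, Eln and Emilin1 are lowest in E47.

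The fall was shared for 6 genes, Eln, Fbln5, Mfap5, Emilin1, Lox and Loxl1, which are 6 of the 8 that fell in E12 KO and 6 of the 7 that fell in E47 KO. For 2 of them a call was not stable: that of Emilin1 in E12 was lost with any E12 library left out, and that of Lox in E47 with library totals. Over all genes, 1207 (8.63%) fell in both. The sizes were unequal between the knockouts, and the test of the difference itself was passed by 7 of the 9 genes (3 positive and 4 negative, as E12 change minus E47 change). Of all genes 48.6% passed it, 22.9% with a positive and 25.7% with a negative value. The fall was larger in E47 for 3 of them, Eln, Fbln5 and Emilin1, and larger in E12 for Mfap5, Loxl1, Lox and Efemp2. For Fbn1 and Mfap4 the difference did not pass. A test for any difference among the 4 genotypes was passed by all 9 tested genes and by 80.8% of all genes, so passing it is common in these libraries.

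Eln (chr5:134702593-134747323, minus strand; gene positions are on GRCm38), the gene of tropoelastin, had 559.9 and 574 CPM in E12 KO against 1032 and 1070 CPM in E12 WT. It had 677 and 677 CPM in E47 KO against 2439 and 2562 CPM in E47 WT. The E47 WT libraries stood far above the other 6, and within each pair of genotypes the knockout and wild-type values did not overlap. On the log2 scale the E12 change was -0.89 (SE 0.0642, adjusted p = 3.5e-08) and the E47 change -1.88 (SE 0.0656, adjusted p = 4.7e-12), a difference of 0.99 (SE 0.0902, adjusted p = 4.1e-07). The mean was highest in E47 WT, then E12 WT, then E47 KO, and lowest in E12 KO. Each of these steps passed its test: the E12 WT cells had 2.38-fold less than the E47 WT cells, the E47 KO cells 1.55-fold less than the E12 WT cells, and the E12 KO cells 1.19-fold less than the E47 KO cells.

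Fbln5 (chr12:101746565-101819055, minus strand), the fibulin that ties tropoelastin to microfibrils and binds Loxl1, had 883 and 848 CPM in E12 KO against 1397 and 1369 CPM in E12 WT. It had 1598 and 1676 CPM in E47 KO against 7421 and 7316 CPM in E47 WT. As for Eln, the E47 WT libraries were apart from all others, but here the E47 KO libraries lay above those of E12 WT. On the log2 scale the E12 change was -0.68 (SE 0.0639, adjusted p = 6.4e-07) and the E47 change -2.17 (SE 0.0661, adjusted p = 1.1e-12), and their difference was 1.49 (SE 0.0903, adjusted p = 4.0e-09). Between the wild types the level was 5.33-fold lower in E12 WT than in E47 WT (adjusted p = 2.5e-13). E47 KO was above E12 WT by 0.24 on the log2 scale (adjusted p = 0.0071), a call that was lost without E47 KO replicate 2 (0.21, adjusted p = 0.059).

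Efemp2 (chr19:5473954-5482517, plus strand), fibulin 4, which in the mouse is required for arterial elastic fibres and binds Lox, fell slightly in E12 KO and did not pass in E47 KO. It had 247 and 245 CPM in E12 KO against 314 and 298 CPM in E12 WT, and 297 and 336 CPM in E47 KO against 315 and 289 CPM in E47 WT. The E12 KO libraries were lowest and the other 6 libraries overlapped. The E12 change was -0.32 (SE 0.0749, adjusted p = 0.0029), and in E47 the log2 change was 0.07 (SE 0.0745, adjusted p = 0.48). The difference between the E12 and E47 changes was -0.38 (SE 0.106, adjusted p = 0.0076), a call that was lost without E47 KO replicate 2 (-0.29). Under library totals without TMM the E47 change was 0.22 and passed as a rise (adjusted p = 0.022). No step among E47 KO, E47 WT and E12 WT passed a test. Its exons overlap Mus81 over 4.57% of their length, and strand was not kept.

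Emilin1 (chr5:30913402-30921277, plus strand), the elastin microfibril interface glycoprotein, had 192 and 184 CPM in E12 KO against 217 and 215 CPM in E12 WT. It had 207 and 211 CPM in E47 KO against 579.9 and 614 CPM in E47 WT. The libraries of E12 KO, E12 WT and E47 KO were within a narrow band, and the 2 of E47 WT stood apart. The E47 change was -1.51 (SE 0.0654, adjusted p = 6.0e-11) and the E12 change -0.20 (SE 0.0651, adjusted p = 0.021), with a difference of 1.31 (SE 0.0917, adjusted p = 2.2e-08). The E12 call was lost when either E12 KO or either E12 WT library was left out (adjusted p 0.050 to 0.16), without the filter on low counts (adjusted p = 0.074) and with library totals (-0.11, adjusted p = 0.23). E47 KO and E12 WT did not pass a test against each other (-0.04, adjusted p = 0.63), nor did E12 KO and E47 KO (-0.16, adjusted p = 0.057).

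**Figure D2:**
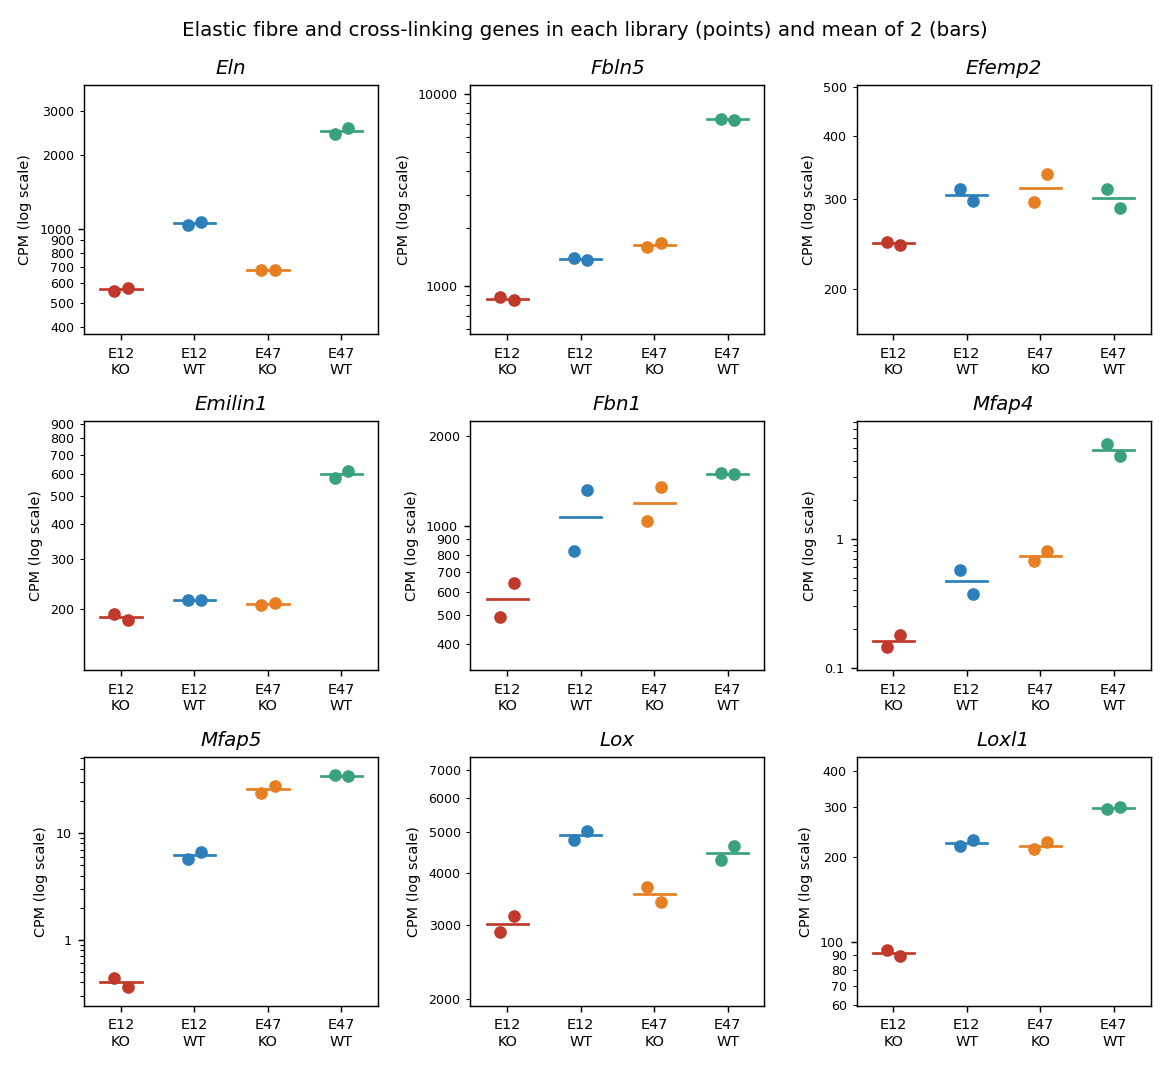
CPM (log axis) of 9 elastic fibre genes in each of the 8 libraries, with each knockout left of its wild type. Eln, Fbln5, Emilin1 and Mfap4 are highest in the 2 E47 WT libraries, Efemp2 varies least, and Mfap5 runs from 0.361 CPM in E12 KO to 34.7 CPM in E47 WT.

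Of the fibrillins, which form the microfibril backbone, Fbn1 (chr2:125300594-125507993, minus strand) was the one expressed. It had 492.6 and 640.3 CPM in E12 KO against 824 and 1316 CPM in E12 WT, and 1033 and 1346 CPM in E47 KO against 1497 and 1492 CPM in E47 WT. Its replicates were the least alike of the well expressed genes: the higher E12 WT library had 1.60 times the lower, and the ratio was 1.30 in E12 KO and in E47 KO. The E12 change of -0.92 (SE 0.172, adjusted p = 0.00050) passed the test, and it was -0.54 without E12 WT replicate 2 (adjusted p = 0.000836). The E47 change of -0.33 (SE 0.171) did not pass (adjusted p = 0.12), but it passed in the fit to the E47 libraries alone (adjusted p = 0.0044), without either E12 WT library (adjusted p 0.00735 and 0.00802) and without the filter on low counts (adjusted p = 1.4e-05). It was -0.14 without E47 KO replicate 1 (adjusted p = 0.61). The difference between the E12 and E47 changes was -0.59 (SE 0.242, adjusted p = 0.057), and it passed with library totals (-0.65, adjusted p = 0.016). It also passed without E12 WT replicate 1 (-0.89), E12 KO replicate 2 (-0.79) or E47 KO replicate 1 (-0.77). Without E12 WT replicate 2 it was -0.21 (adjusted p = 0.29). Exons of Fbn1 overlap those of Gm9913 over 20.1% of their length, so reads there could not be given to 1 gene with certainty. Fbn2, the fibrillin of developing tissue, had 1 and 0 counts in E12 KO, 0 and 1 in E12 WT, 0 and 1 in E47 KO, and 0 and 5 in E47 WT, and was not tested.

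Mfap5 (chr6:122505845-122529290, plus strand), a small glycoprotein that binds fibrillins, had the widest range of the 10 genes. It was near the limit of detection in E12 KO, with 0.435 and 0.361 CPM (9 and 6 counts), against 5.75 and 6.58 CPM in E12 WT. E47 KO had 23.7 and 27.8 CPM against 34.7 and 33.95 CPM in E47 WT. The 4 genotypes did not overlap. The E12 change was -3.91 (SE 0.265, adjusted p = 1.8e-08) and the E47 change -0.42 (SE 0.0932, adjusted p = 0.0014), and the difference was -3.49 (SE 0.294, adjusted p = 1.8e-07). The E47 change was -0.26 with library totals (adjusted p = 0.025). Between the knockouts the level was 62.6-fold lower in E12 KO than in E47 KO (adjusted p = 3.5e-12), and between the wild types it was 5.58-fold lower in E12 WT than in E47 WT (adjusted p = 1.2e-10).

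Mfap4 (chr11:61485431-61488900, plus strand), a microfibril glycoprotein that binds tropoelastin, had the lowest level per kilobase of the tested genes. It passed the filter on low counts through E47 KO and E47 WT and not through the E12 libraries, so the filter favours lower values in E12 than in E47. It had 0.145 and 0.180 CPM in E12 KO, which is 3 counts in each library, against 0.575 and 0.374 CPM in E12 WT, 9 and 5 counts. It had 0.676 and 0.803 CPM in E47 KO against 5.45 and 4.33 CPM in E47 WT. The E12 values are at or near the limit of detection, and their comparison did not pass (adjusted p = 0.059). The E47 change was -2.70 on the log2 scale (SE 0.279, adjusted p = 1.2e-06). The test of whether the E12 and E47 changes of Mfap4 differ did not pass either (adjusted p = 0.25). Between the knockouts Mfap4 was lower in E12 KO than in E47 KO (adjusted p = 0.0046), with the E12 KO libraries at the limit of detection. Its exons overlap Mapk7 over 4.63% of their length.

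Of the cross-linking enzymes, Lox, on chromosome 18, was the main one by level per kilobase of transcript. It had 2895 and 3146 CPM in E12 KO against 4777 and 5028 CPM in E12 WT, and 3688 and 3412 CPM in E47 KO against 4277 and 4623 CPM in E47 WT. Each knockout lay below its wild type without overlap, and the wild types did not pass a test against each other (E12 WT minus E47 WT 0.14, adjusted p = 0.12). On the log2 scale the E12 change was -0.70 (SE 0.0728, adjusted p = 1.8e-06) and the E47 change -0.33 (SE 0.0725, adjusted p = 0.0015), a difference of -0.37 (SE 0.102, adjusted p = 0.0074). The E47 call was lost with library totals (-0.17, adjusted p = 0.065).

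Loxl1 (chr9:58287738-58313186, minus strand), which in the mouse maintains elastic fibres after birth, had 93.8 and 89.7 CPM in E12 KO against 219 and 229.5 CPM in E12 WT. It had 212.5 and 225 CPM in E47 KO against 293.5 and 300.2 CPM in E47 WT. E12 KO was lowest, E47 WT highest, and E47 KO and E12 WT overlapped. The E12 change of -1.29 (SE 0.0679, adjusted p = 1.0e-09) was larger than the E47 change of -0.44 (SE 0.0654, adjusted p = 4.7e-05), and their difference was -0.85 (SE 0.0938, adjusted p = 3.3e-06).

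The E12 WT and E47 WT cells were not alike in these genes. In E12 WT against E47 WT, 7 of the 9 tested genes were lower and none was higher, and the median log2 change was -1.25, while 27.6% of all genes were lower and 27.8% higher (55.4% in either direction). The lower genes were Eln, Fbln5, Mfap4, Mfap5, Emilin1, Loxl1 and Fbn1. Fbn1 had a log2 change of -0.48 (adjusted p = 0.026), a call that was lost with DESeq2 (adjusted p = 0.21) and without E12 WT replicate 1 (-0.18, adjusted p = 0.25) or either E47 WT library (adjusted p 0.064 and 0.070). Mfap4 is counted here although it had enough counts to be tested only in E47 KO and E47 WT. Summed markers differed too: endothelial ones were 8.90 to 10.2 CPM in E12 WT against 643 to 708 CPM in E47 WT, mesothelial ones 1478 to 1588 against 94.4 to 99.9 CPM, chondrocyte ones 327 to 378 against 1209 to 1240 CPM, and smooth muscle ones 4534 to 4635 against 7844 to 7966 CPM. Not each marker followed its sum: Kdr, Comp, Matn3, Myocd and Tpm2 averaged more in E12 WT, with Comp at 16.6 against 0.407 CPM and Myocd at 11.3 against 4.90 CPM. The part of the markers in this comparison was not tested.

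Between the knockouts, 8 of the 9 genes were lower in E12 KO than in E47 KO and none was higher, with a median log2 change of -0.92, against 27% of all genes lower and 25.9% higher (52.9% in either direction). Emilin1 did not pass. Mfap4 is counted among the 8 and in the median. It passed the filter on low counts only through E47 KO and E47 WT, so the filter favours lower values in E12 KO. The log2 change was -1.07 for Fbn1 (adjusted p = 0.00010) and -1.25 for Loxl1 (adjusted p = 8.3e-10). That of Lox was -0.23 (adjusted p = 0.014), a call lost without E12 KO replicate 1 (-0.17, adjusted p = 0.14) or E47 KO replicate 1 (-0.17, adjusted p = 0.13). Summed markers differed between these genotypes as well: the mesothelial ones were 873 to 893 CPM in E12 KO against 398 to 413 CPM in E47 KO, the chondrocyte ones 85.5 to 95.9 against 543 to 554 CPM, the adventitial ones 107 to 131 against 253 to 282 CPM, and the smooth muscle ones 3488 to 3634 against 4178 to 4596 CPM. The endothelial ones overlapped, at 5.07 to 5.59 against 4.15 to 6.71 CPM. Not each marker followed its sum: Pdgfra averaged 22.0 CPM in E12 KO and 9.08 CPM in E47 KO, Lum 4.59 and 0.806 CPM, and Smtn 128 and 115 CPM. The part of the markers in the result was not tested.

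A comparison of E47 KO with E12 WT, chosen after the levels had been seen, gave changes in both directions. Of the 9 genes, Mfap5 (2.06, adjusted p = 5.2e-09) and Fbln5 were higher in E47 KO, and Eln (-0.63, adjusted p = 1.6e-06) and Lox (-0.47, adjusted p = 0.00013) were lower. The median log2 change was 0.05, and 18.6% of all genes were higher and 19.6% lower. Fbn1, Efemp2, Mfap4, Emilin1 and Loxl1 did not pass, with log2 changes of -0.04 to 0.60. Fbn1 passed as higher without E12 WT replicate 2 (0.53, adjusted p = 0.0022).

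To compare levels between genes, CPM was divided by the length in kilobases of the longest coding transcript, which was 1506 bases for Mfap5 and 11971 for Fbn1. Summed over the 10 genes, CPM per kilobase was 1150.4 in E12 KO, 1878 in E12 WT, 1563 in E47 KO and 3362 in E47 WT. By this level Lox mRNA was the most abundant in E12 KO (637 CPM per kilobase), E12 WT (1034) and E47 KO (749), and Fbln5 was the most abundant in E47 WT (1264, with Lox at 939 and Eln at 649). Eln was at 147 CPM per kilobase in E12 KO, 273 in E12 WT and 176 in E47 KO. Fbn1 was between 47.3 CPM per kilobase in E12 KO and 125 in E47 WT, and Efemp2 between 93.4 in E12 KO and 120.1 in E47 KO. Emilin1 was between 48.8 CPM per kilobase in E12 KO and 155 in E47 WT, and Loxl1 between 27.8 in E12 KO and 90.0 in E47 WT. The microfibril-associated genes were far lower, with Mfap5 at 0.264 CPM per kilobase in E12 KO and 22.8 in E47 WT and Mfap4 at 0.0945 in E12 KO and 2.84 in E47 WT.

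The make-up of the set was most distinct in E47 WT. Fbln5 was 17.6% and 18.4% of the summed CPM per kilobase in the E47 KO libraries, against 38.4% and 36.9% in those of E47 WT. Lox was 49.8% and 46.0% in E47 KO against 27.2% and 28.6% in E47 WT, and it was 54.5% and 56.2% in E12 KO against 55.1% and 55.1% in E12 WT. Set against elastin itself, Lox had 4.20 and 4.45 times the CPM per kilobase of Eln in E12 KO and 3.76 and 3.82 times in E12 WT. In E47 KO it had 4.42 and 4.09 times, against 1.43 and 1.47 times in E47 WT. The E47 WT libraries, which had the most elastin mRNA, were thus apart, and the other 6 libraries lay between 3.76 and 4.45 times. The ratio of Fbln5 to Eln was 1.04 and 0.976 in E12 KO, 0.895 and 0.845 in E12 WT, 1.56 and 1.64 in E47 KO, and 2.01 and 1.89 in E47 WT. These shares and ratios depend on the length used. Per kilobase of all annotated exons of a gene, in place of the longest coding transcript, the ratio of Lox to Eln was 8.76 and 9.29 in E12 KO, 7.84 and 7.96 in E12 WT, 9.23 and 8.54 in E47 KO, and 2.97 and 3.06 in E47 WT. That of Fbln5 to Eln was 1.85 and 1.73 in E12 KO, 1.59 and 1.5 in E12 WT, 2.76 and 2.90 in E47 KO, and 3.57 and 3.35 in E47 WT. By either length Lox was first in E12 KO, E12 WT and E47 KO and Fbln5 first in E47 WT, whereas Fbln5 was below Eln in E12 WT by the first length and above it by the other.

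**Figure D3:**
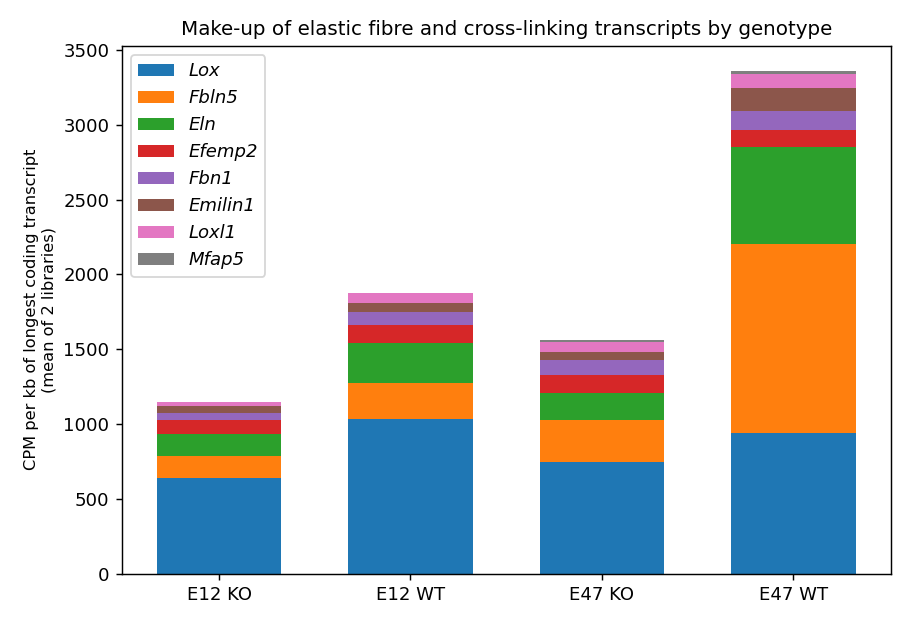
Stacked bars of mean CPM per kilobase of 8 elastic fibre genes in E12 KO, E12 WT, E47 KO and E47 WT; Mfap4 and Fbn2 are too low to draw. The E47 WT bar is the tallest (3362) and has Fbln5 as its largest part, and Lox is the largest part of the other 3 bars.

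A list of 35 further components, among them the other fibulins, multimerins, latent TGF-beta binding proteins, lysyl oxidase-like enzymes and ADAMTS-like proteins, had 30 genes tested. In E12 KO against E12 WT 8 were higher, 12 were lower and 10 did not pass, with a median log2 change of -0.08 (all genes: 21.9% higher and 24.5% lower). In E47 KO against E47 WT 11 were higher, 12 were lower and 7 did not pass, with a median of -0.04 (all genes: 27.7% higher and 27.5% lower). The difference between the E12 and E47 changes passed for 22 of the 30, 7 with a positive and 15 with a negative value, and for 48.6% of all genes. Of the 30, 3 genes fell in both knockouts (Fbln1, Loxl3 and Ltbp3) and 5 rose in both (Efemp1, Emilin2, Fbln7, Ltbp1 and Thsd4), while 8 passed in opposite directions. Of all genes 8.63% fell in both, 7.50% rose in both and 13.2% passed in opposite directions, and these list members were counted and named after their values were seen.

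Efemp1, fibulin 3, a relative of Fbln5 and Efemp2, rose in both knockouts. It averaged 190.3 ± 5.0 CPM in E12 KO and 75.0 ± 3.5 CPM in E12 WT, and 109.6 ± 6.03 CPM in E47 KO and 10.5 ± 1.43 CPM in E47 WT (SD, n = 2 each). On the log2 scale the E12 change was 1.34 (SE 0.0798, adjusted p = 3.8e-09, edgeR) and the E47 change 3.41 (SE 0.0967, adjusted p = 5.3e-13, edgeR). Fbln1, another fibulin of elastic fibres, fell in E12 KO to 0.844 ± 0.173 CPM against 8.66 ± 0.138 CPM in E12 WT (SD, n = 2 each; adjusted p = 2.4e-08, edgeR). Emilin2, a paralogue of Emilin1, rose in E47 KO to 47.9 ± 2.77 CPM against 10.96 ± 1.43 CPM in E47 WT (SD, n = 2 each; log2 change 2.15, adjusted p = 1.3e-10, edgeR), opposite to Emilin1. Mmrn2, a multimerin made by endothelial cells, had 0.773 ± 0.137 CPM in E47 KO and 189 ± 2.47 CPM in E47 WT (SD, n = 2 each; log2 change -7.94, adjusted p = 4.9e-15, edgeR). It averaged 0.832 CPM in E12 KO and 0.624 CPM in E12 WT, and the endothelial markers Pecam1, Cdh5, Emcn, Vwf, Tie1 and Erg too were highest in E47 WT. Tek was highest there at only 1.38 CPM, and Kdr was not, with 2.40 CPM in E47 WT against 4.01 CPM in E12 WT.

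Within the lysyl oxidase family the enzymes divided. Loxl3 fell in both knockouts as Lox and Loxl1 did, to 74.9 ± 3.05 CPM in E12 KO against 208 ± 8.59 CPM in E12 WT and to 134.5 ± 0.380 CPM in E47 KO against 225.5 ± 9.60 CPM in E47 WT (SD, n = 2 each). Its log2 change was -1.48 in E12 (adjusted p = 3.3e-10) and -0.75 in E47 (adjusted p = 2.8e-07). Loxl4 fell in E12 KO, with 107.6 ± 9.15 CPM against 167 ± 4.83 CPM in E12 WT, but rose in E47 KO, with 197 ± 16.95 CPM against 36.6 ± 1.72 CPM in E47 WT (SD, n = 2 each). Its E47 change was 2.43 on the log2 scale (adjusted p = 6.2e-12), and the difference between the E12 and E47 changes was -3.06 (adjusted p = 2.7e-11). Loxl2, named after its values were seen, had the same directions, -0.92 in E12 (adjusted p = 6.4e-08) and 1.48 in E47 (adjusted p = 2.3e-10). Adamtsl4, an ADAMTS-like protein of fibrillin microfibrils, fell in E12 KO, with 50.2 ± 0.236 CPM against 129.8 ± 8.11 CPM in E12 WT (SD, n = 2 each; log2 change -1.37, adjusted p = 1.0e-09, edgeR).

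Genes that break down elastic fibres, inhibit their breakdown or encode the elastin receptor complex (Glb1, Neu1 and Ctsa) formed a list of 21, of which 13 were tested. In E12 KO against E12 WT 3 rose, 9 fell and 1 did not pass (median log2 change -0.41), where 21.9% of all genes rose and 24.5% fell. In E47 KO against E47 WT 4 rose, 5 fell and 4 did not pass (median 0.03), where 27.7% of all genes rose and 27.5% fell. Mmp2, gelatinase A, which cleaves elastin, rose in E12 KO to 401 ± 4.45 CPM against 119.8 ± 9.54 CPM in E12 WT (SD, n = 2 each; log2 change 1.74, adjusted p = 7.8e-11, edgeR). In E47 it had 672 ± 22.1 CPM in the knockout and 658 ± 12.9 CPM in the wild type. Timp3, the metalloproteinase inhibitor bound to matrix, went in opposite directions: 1101 ± 43.7 CPM in E12 KO against 2559 ± 117 CPM in E12 WT, and 4184 ± 362 CPM in E47 KO against 2207 ± 163 CPM in E47 WT (SD, n = 2 each). The difference between its changes was -2.14 (adjusted p = 7.7e-10). Timp2, another such inhibitor, fell in E12 KO to 1862 ± 54.3 CPM against 3342 ± 33.9 CPM in E12 WT (SD, n = 2 each; adjusted p = 7.1e-08, edgeR).

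In E47, Mmp14, the membrane-bound activator of Mmp2, rose to 489.5 ± 32.6 CPM in the knockout against 310.5 ± 7.51 CPM in the wild type (SD, n = 2 each; log2 change 0.66, adjusted p = 1.4e-06, edgeR). Cst3, cystatin C, an inhibitor of elastolytic cathepsins, fell to 466 ± 41.4 CPM in the knockout against 784 ± 64.6 CPM in the wild type (SD, n = 2 each; log2 change -0.75, adjusted p = 3.8e-06, edgeR). Cst3 fell in E12 KO as well (-0.46, adjusted p = 0.00050, edgeR), and the difference between its changes did not pass (0.29, adjusted p = 0.066, edgeR). Mmp14 fell in E12 KO (-0.25, adjusted p = 0.0083, edgeR), a call lost with library totals (-0.15) and without E12 KO replicate 2 (-0.21). The lysosomal protease Ctsd fell in both, with a log2 change of -0.46 in E12 (adjusted p = 0.00012) and -0.49 in E47 (adjusted p = 4.4e-05).

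**Figure D4:**
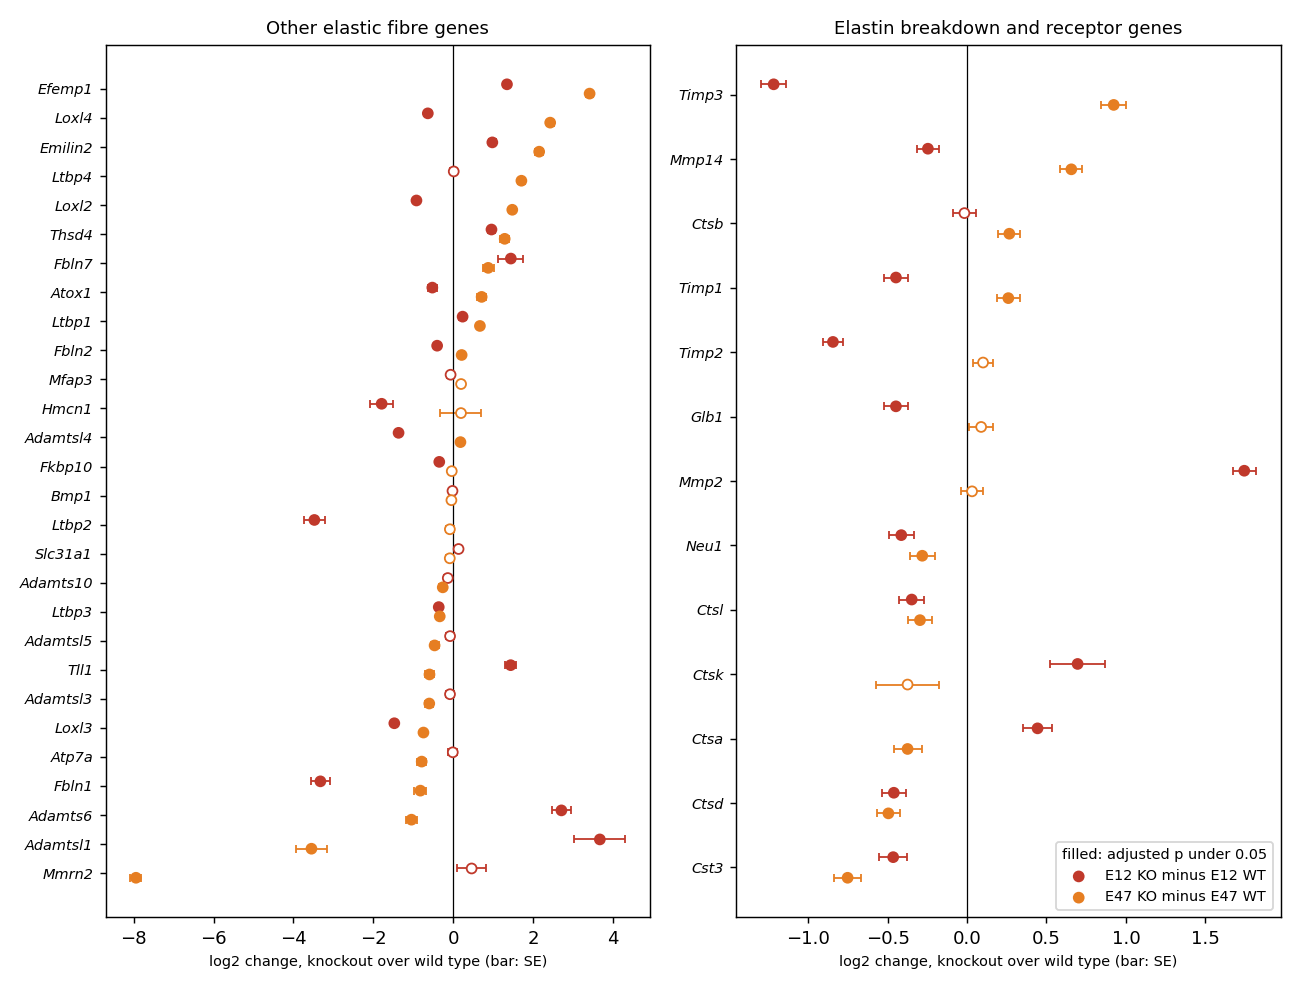
Log2 change, knockout against its own wild type, in E12 and in E47 for 28 further elastic fibre genes and 13 genes of elastin breakdown, its inhibitors and the elastin receptor complex. Filled points passed the test. Points lie on both sides of 0 in both panels, with Mmrn2 lowest (-7.94) and Efemp1 among the highest (3.41) in E47.

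Among 11121 other genes with a mean of at least 2 CPM, the profiles most like that of Eln over the 8 libraries (Pearson's r of log2 CPM with a prior count of 2) were those of Mgat5 (0.999), Unc5b (0.997), Icam1 (0.997), Nucb2 (0.996) and Col8a1 (0.996). Col8a1, a collagen chain of the vessel wall, averaged 487 CPM in E12 KO and 856 CPM in E12 WT, and 613 CPM in E47 KO and 2374 CPM in E47 WT. The profiles most like that of Lox were those of Hsp90b1 (0.991), Adcy5 (0.985), Rusc2 (0.984), P3h1 (0.983) and Tnfrsf23 (0.983). P3h1, a prolyl hydroxylase that modifies collagen, averaged 89.5 CPM in E12 KO and 144.5 CPM in E12 WT, and 105.5 CPM in E47 KO and 136 CPM in E47 WT. The 8 libraries fall into 4 pairs and share their depth and scaling, so these values describe likeness and were not tested.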

How the data were processed

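The libraries were polyA-enriched and unstranded, per the labels' protocols. The submitters' processing notes name FastQC, HISAT, featureCounts and GRCm38 (mm10). Tool versions, parameters and annotation were not given in the sources used here. Values were deposited by the authors as raw counts per gene symbol, 1 column per library. In 24 symbols, on 26 rows, names had been turned into dates (0.153% to 0.198% of a library's counts).

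From these counts, edgeR 4.0.16 in R 4.3.3 filtered genes on low counts, scaled libraries by TMM and fitted 4 groups to 8 libraries with the quasi-likelihood F test. Benjamini-Hochberg adjustment ran over 13992 genes, and an adjusted p under 0.05 passed. Variation between libraries of a genotype beyond counting noise, which may be technical, had a common coefficient of 0.0598 (residual degrees of freedom: 4). Replicates of every genotype differed beyond sampling noise (chi-square per degree of freedom 4.84 to 14.2). Lengths and positions are from GENCODE M21 (GRCm38).

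The members and lists were chosen with earlier results of these data known. All 10 members are named, with up to 4 genes of lowest p per list and knockout, the 5 genes most alike to Eln and to Lox, and Tcf3. The comparison of E47 KO with E12 WT was added after the data were seen. On simulated counts for the E12 comparison (13610 genes), 70.1% of genes changed 1.5-fold, 83.6% changed 2-fold and 95.5% changed 4-fold were recovered, and 5 unchanged genes were called. Every simulated gene had the common coefficient of variation, and only 67, 67 and 66 genes were changed. In the data the spread differs between genes and 46.4% of genes passed in E12, so these rates need not hold there. Alternatives were DESeq2 1.42.0, its size factors in edgeR, no filter, the compared groups alone, and each library left out; library totals, no E47 WT libraries and the length of all annotated exons were chosen after seeing the data.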

Additional observations from a re-analysis of the deposited data

Results flagged for a closer look

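The change in E12 KO differed from the change in E47 KO by the test of the difference itself for 7 of the 9 tested genes (E12 change minus E47 change on the log2 scale, edgeR). It was -3.49 for Mfap5, 1.49 for Fbln5, 1.31 for Emilin1, 0.99 for Eln, -0.85 for Loxl1, -0.38 for Efemp2 and -0.37 for Lox. A positive value means that the gene fell more in E47 KO. In the same test 48.6% of all genes passed. The endothelial markers of the E47 WT libraries stand on the wild-type side of the E47 change, and their part in these differences was not tested.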

How the results depend on the processing

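No paired analysis was possible because the replicate numbers follow accession order and pair no libraries. Of the values recomputed for the members, 682 kept their direction and side of the threshold, 15 lost and 13 gained a call, and 9 reversed; over all results with the lists these numbers were 1050, 22, 15 and 10. All reversed values were small and uncalled. With 1 library left out, Mmrn2 in E12 ran from -0.037 to 0.78, Efemp2 in E47 from -0.018 to 0.16 and in E12 WT against E47 WT from -0.041 to 0.083, and, in E47 KO against E12 WT, Fbn1 from -0.15 to 0.53, Efemp2 from -0.047 to 0.14 and Loxl1 from -0.077 to 0.0086. In that comparison library totals gave 0.039 for Emilin1 and 0.048 for Loxl1.

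With library totals 1 member rose in E47 KO (Efemp2) and 1 was higher in E12 WT than in E47 WT (Lox, 0.21, adjusted p = 0.025), where 1 was also higher without the filter (Lox, 0.14). Left-out libraries gave 7 to 8 lower members in E12, 7 to 8 in E47, 6 to 7 in E12 WT against E47 WT and 7 to 8 in E12 KO against E47 KO, 3 to 5 negative differences, and 1 to 3 higher members in E47 KO against E12 WT, 1 of them without E47 KO replicate 2. The number of genes past the test was 5320 to 6409 in E12 and 5867 to 8161 in E47 with a library left out, and 4926 and 5961 with DESeq2. Library totals moved the median log2 change of all genes to 0.08 in E12 and 0.17 in E47, and the share of higher calls to 59.4% from 47.2% in E12, to 67.1% from 50.1% in E47 and to 61.9% from 48.7% in E47 KO against E12 WT. Without the E47 WT libraries, 8 members were lower in E12 KO against E12 WT and 8 in E12 KO against E47 KO. The causes were not tested. Depth limits Mfap4 and Fbn2, which lie at or near 3 counts in some libraries.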
